A study of Mus musculus with 12 samples.

Results

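The members described here are the nuclear genes of the mitochondrial respiratory chain and ATP synthase measured in *Crx* mutant mouse retina. They were taken by name, as every gene whose symbol starts with *Nduf*, *Sdh*, *Uqcr*, *Cox4*, *Cox5*, *Cox6*, *Cox7*, *Cox8* or *Atp5* and that was detected (detection p-value under 0.05) by a probe on 1 or more of the 12 arrays. Of 91 such genes on the array, 81 were detected, out of 12822 genes detected in all, and each is given by its probe of highest mean signal. They comprise 32 genes named for complex I subunits, 7 complex I assembly factors, 3 complex II subunits, 4 complex II assembly factors, 7 complex III genes, 13 complex IV genes and 15 genes of complex V, the ATP synthase. The 10 genes with no detected probe were *Atp5e*, *Cox7b*, *Cox7b2*, *Cox8c*, *Ndufaf6*, *Ndufb11*, *Ndufb4*, *Ndufb9*, *Ndufs1* and *Sdhd*. Of the 81 members, 70 were detected on all 12 arrays, 4 on 11 arrays and 7 on 1 to 6 arrays.

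RNA of the whole retina was taken at postnatal day 10 from 4 genotypes and put on 3 Illumina bead arrays each. CRX is the homeodomain protein that switches on many rod and cone genes. The genotypes were *WT*; *E168d2neo/d2neo*, homozygous for a 2-bp deletion that shifts the reading frame and truncates the CRX protein; *R90Wneo/Wneo*, homozygous for an arginine-to-tryptophan substitution in the homeodomain; and *Crx-/-*, the knock-out. Both knock-in lines still carried a *neomycin* cassette in a *Crx* intron, so neither is the cassette-free allele. The cassette lowers expression of the mutant allele relative to the cassette-free line. By the study's RT-PCR, total *Crx* mRNA in *E168d2neo/d2neo* still lay above *WT*. The mice were labelled C57bl6/J. The knock-in lines were made in ES cells of another strain. The knock-out line came from another laboratory, and earlier work on it used a mixed strain background. By the study's methods, all mice used were backcrossed to C57bl6/J. Genotype and line of origin thus go together in every comparison, also for differences seen in *Crx-/-* alone. The part of remaining strain differences was not tested. Each pool joined 4 retinas, from 1 male mouse and 1 female mouse, so animal-to-animal spread within a pool is not seen. The p-values by limma measure the spread between pools of the same genotype, estimated jointly over the 4 genotypes. The 3 comparisons with *WT* share the same *WT* arrays.

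The respiratory chain passes electrons from NADH through complex I, or from succinate through complex II, to ubiquinone, then through complex III and cytochrome c to complex IV, where oxygen is reduced. The proton gradient built by complexes I, III and IV drives the ATP synthase. Photoreceptors pack their mitochondria into the inner segment and have a high demand for ATP, and most of the cells of a rodent retina are rods. In RNA from the whole retina, fewer cells of a type and less RNA per cell cannot be told apart.

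Values are log2 signal intensities after quantile normalization, with a floor of 16 that reads 4 on this scale, and levels of different probes are not compared with each other. Array mean signals before normalization ran from 176 to 394 and 32.7 to 41.3% of probes were detected, with *WT* replicate 1 at the low end of both. The tissue carried its defining markers. The summed rod level was 16.7 to 16.8 in *WT*, 14.54 to 15.02 in *E168d2neo/d2neo*, 15.3 to 16.4 in *R90Wneo/Wneo* and 14.98 to 15.14 in *Crx-/-*, and all 5 rod markers on the array were detected on every array. The *Crx* probe itself read 13.4 to 13.7 in *WT*, 13.7 to 14.0 in *E168d2neo/d2neo*, 13.4 to 13.6 in *R90Wneo/Wneo* and 12.83 to 13.04 in *Crx-/-*. Its place relative to the deleted exons was not established, so it does not check the knock-out label. Some arrays stood apart. The lens crystallin *Cryba1* read 14.93 on *E168d2neo/d2neo* replicate 1, 12.82 on *R90Wneo/Wneo* replicate 3, and 13.85 and 11.29 on *Crx-/-* replicates 1 and 3, against 4.77 to 9.13 on the other 8 arrays. The rod gene *Gnat1* read 11.71, 13.82 and 15.31 on the 3 *R90Wneo/Wneo* arrays, a range almost as wide as the distance between the mutants and *WT*. *Xist*, the female-specific transcript, was at the floor on *Crx-/-* replicate 3 and at 8.05 to 9.69 on the other 11 arrays. For that array this goes against the label of a pool of both sexes. The male-specific *Eif2s3y* was detected on only 6 of 12 arrays and read at most 5.59. It was at the floor on *E168d2neo/d2neo* replicates 1 and 2 and *R90Wneo/Wneo* replicate 2. So near the floor, it does not check the male part of the label.

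*Ndufaf5* and *Atp5k* were the only members called at 2-fold in any comparison, so the bases upstream of these 2 genes are shown first. The sequences are from RefSeq on GRCm38.p6 and run 5′ to 3′ on the strand of the gene, each giving the 200 bases before the transcript start. The *Atp5k* stretch is chr5:108434400-108434599 on the minus strand and the *Ndufaf5* stretch is chr2:140170446-140170645 on the plus strand. Neither holds any of the motifs searched, so no base is in capitals.
Atp5k: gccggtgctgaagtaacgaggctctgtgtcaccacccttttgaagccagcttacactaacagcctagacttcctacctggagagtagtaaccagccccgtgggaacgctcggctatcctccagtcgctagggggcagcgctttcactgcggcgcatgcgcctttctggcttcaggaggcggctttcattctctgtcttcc
Ndufaf5: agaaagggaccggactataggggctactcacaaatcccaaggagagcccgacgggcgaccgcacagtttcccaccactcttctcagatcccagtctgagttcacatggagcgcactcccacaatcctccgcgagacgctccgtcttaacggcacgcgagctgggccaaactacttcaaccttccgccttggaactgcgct

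RefSeq gave a promoter window, 250 bases before to 50 after the start, for 70 of the 81 members, and 3 short motifs were searched in it on both strands. TAATCC, the core bound by CRX, was in 7 of the 70 members (10%), *Cox6b2*, *Cox7a2l*, *Ndufa11*, *Ndufa12*, *Ndufb7*, *Ndufs4* and *Sdhaf4*, and in 8.14% of all 27025 genes with a window. The ETS core CCGGAAG, which the GA-binding protein of respiratory chain promoters binds, was in 19 members (27.1%) against 9.93% of genes, and in *Atp5k* it lay just after the start, at position 13. The YY1 core AAGATGGCG was in 8 members (11.4%) against 1.64% of genes. A match is a description of letters in a short window and not a site or a cause, and a window without a match says nothing of the factor.

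Most members differed little between genotypes. Among the 70 members detected on all arrays, the 4 genotype means spanned a median of 0.271 on the log2 scale, against 0.396 for the 7608 genes detected on all arrays, and 84.3% of these members spanned under 0.5 against 64.4% of those genes. The spread between pools was also smaller, with a median SD within genotypes of 0.144 against 0.207. A span of means grows with that spread, and its part in the smaller spans was not tested. The means of *Atp5j* (coupling factor 6 of the ATP synthase stalk), *Ndufa1* and *Ndufc2* (both accessory subunits of complex I) spanned only 0.087, 0.099 and 0.104. For *Ndufa1* the small span hides pools that disagree. It read 10.83, 12.09 and 12.14 in *E168d2neo/d2neo*, on both sides of the *WT* range of 11.40 to 11.83. A span of 1 or more was seen for 2 of the 70, *Ndufaf5* (1.393) and the complex IV subunit gene *Cox6c* (1.019).

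At an adjusted p of at most 0.05 (limma, Benjamini-Hochberg over all detected probes) and at least 2-fold, *E168d2neo/d2neo* had 1 member lower than *WT*, where 2.56% of all genes were lower, and 0 higher, where 1.36% were higher. *R90Wneo/Wneo* had 0 members called, against 0.78% of genes lower and 0.281% higher. *Crx-/-* had 1 member lower, where 2.76% of genes were lower, and 1 higher, where 1.39% were higher. With no fold limit, 3 members were lower in *E168d2neo/d2neo* (4.19% of genes), 1 in *R90Wneo/Wneo* (1.02%) and 2 in *Crx-/-* (4.63%). With no fold limit 0 members were higher in *E168d2neo/d2neo* (2.9% of genes), 0 in *R90Wneo/Wneo* (0.476%) and 1 in *Crx-/-* (3.16%). Taken without adjustment, limma's p was under 0.05 for 15, 7 and 14 of the 81 members in the same order (18.5, 8.64 and 17.3%), below the shares of all genes in each comparison (23.1, 11.8 and 22.9%). Of these members 13, 7 and 8 were lower. The called members are therefore *Ndufaf5*, *Ndufa3*, *Ndufa2* and *Atp5k*, and the rest of the chain is described by its medians and ranges.

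Differences that single genes did not carry past the threshold leaned to one side. The median member was 0.17 lower than *WT* on the log2 scale in *E168d2neo/d2neo*, with 60 of 81 members below 0, while the median of all genes was 0.00 with 6223 of 12822 below 0. In *R90Wneo/Wneo* the median was 0.08 lower with 54 members below 0, and in *Crx-/-* it was also 0.08 lower with 51 below 0. In *E168d2neo/d2neo* all 3 arrays lay below all 3 *WT* arrays for 20 members, where 12.6% of all genes did so, and above them for 5, where 12.3% of genes did so. The corresponding numbers in *R90Wneo/Wneo* were 16 below and 2 above, against 10.2% and 10.1% of genes, and in *Crx-/-* 15 below and 11 above, against 16.7% and 16.4%. Both arms of the *Crx-/-* count stood near that background.

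**Figure D1:**
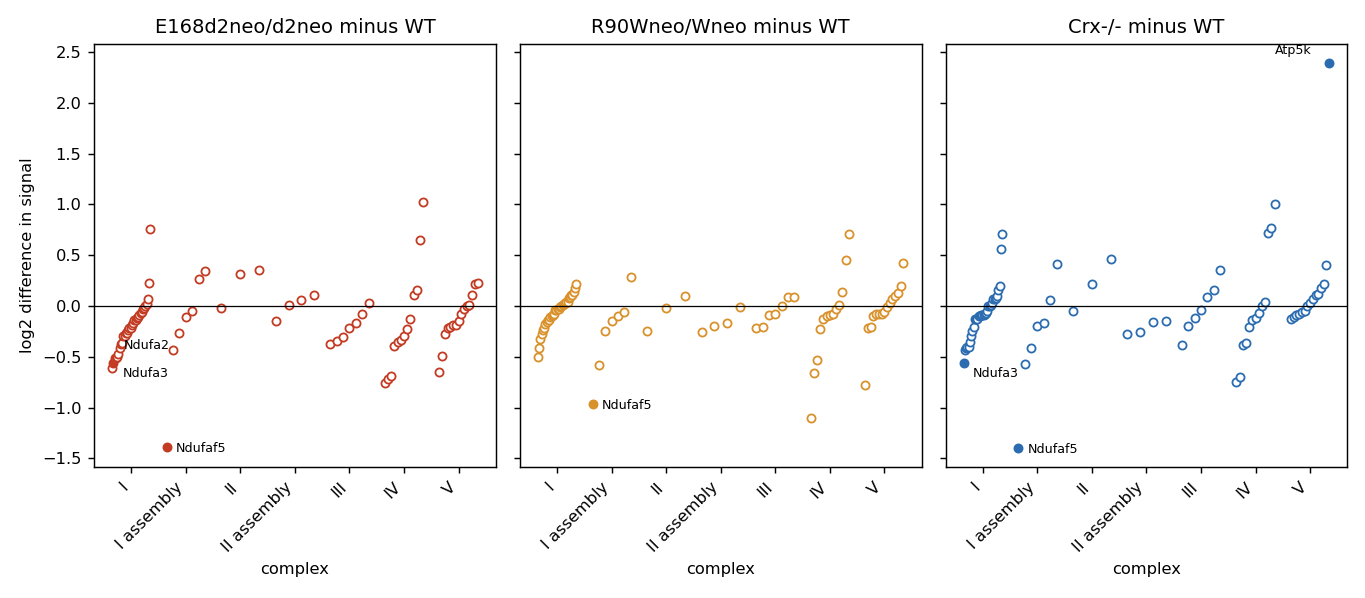
Log2 difference from WT (vertical axis) for each of the 81 members, grouped by complex (horizontal axis) and ordered by value, with 1 panel per mutant genotype, 1 point per member and filled points for members whose adjusted p did not exceed 0.05. Most points lie within 0.5 of 0, Ndufaf5 is low in all 3 panels (-1.38, -0.96 and -1.39) and Atp5k stands above the rest in Crx-/- (2.39).

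Complex I, the largest of the complexes, takes electrons from NADH. Its 32 genes had a median of -0.20 in *E168d2neo/d2neo*, with 27 below 0. Of them 12 lay below *WT* on all arrays and 0 above, where 12.6% and 12.3% of all genes did so. In *R90Wneo/Wneo* the median was -0.04 with 19 below 0, and in *Crx-/-* -0.09 with 22 below 0. The lean in *E168d2neo/d2neo* was smaller without its replicate 1, the array with the highest lens crystallin level, at -0.11 with 24 of 32 genes below 0.

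*Ndufaf5* encodes an assembly factor of complex I that, in human cells, hydroxylates an arginine of the core subunit NDUFS7. Its probe read 9.59, 9.97 and 9.62 on the *WT* arrays, 8.16, 8.37 and 8.50 in *E168d2neo/d2neo*, 8.55, 8.80 and 8.94 in *R90Wneo/Wneo*, and 8.29, 8.53 and 8.18 in *Crx-/-*. All 9 mutant arrays lay below all 3 *WT* arrays. It fell by 1.38 (SE 0.18, adjusted p = 0.00084 by limma, n = 3 against 3) in *E168d2neo/d2neo*, which is 2.61-fold lower, and by 1.39 (adjusted p = 0.000946) in *Crx-/-*, 2.63-fold lower. It fell by 0.96 (adjusted p = 0.024), 1.95-fold, in *R90Wneo/Wneo*. The *R90Wneo/Wneo* arrays ran in the same order for *Ndufaf5* as for *Gnat1*, which are 3 points and no test. The first 2 calls held with each array left out in turn, with differences of -1.46 to -1.26 and -1.49 to -1.27. The *R90Wneo/Wneo* call was lost in 5 of 12 such fits, with an adjusted p of up to 0.119.

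Beside *Ndufaf5*, the summed rod level was lower in every mutant pool than in *WT*. That sum includes *Gnat1*, which the study lists as downregulated in all 3 mutants, so it does not count rods. The part of rod RNA in the *Ndufaf5* difference was not tested. The 3 mutants were not shown to differ from each other in *Ndufaf5*. The difference was 0.01 between *E168d2neo/d2neo* and *Crx-/-* (adjusted p = 1 by limma), 0.43 between *R90Wneo/Wneo* and *Crx-/-* (adjusted p = 0.416) and -0.42 between *E168d2neo/d2neo* and *R90Wneo/Wneo* (adjusted p = 0.516). *Ndufs7*, whose product Ndufaf5 modifies, differed from *WT* by -0.19, -0.04 and -0.08 and was not called. Of the other assembly factors, *Ndufaf4* read 10.01, 9.90 and 10.14 in *WT* and 10.22 to 10.60 in *E168d2neo/d2neo*, a difference of 0.35 (adjusted p = 0.301 by limma), and *Ndufaf8* differed by -0.43 (adjusted p = 0.115 by limma) there.

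*Ndufa3*, an accessory subunit of the membrane arm, was the other complex I gene called in more than 1 mutant. It read 12.44, 12.58 and 12.39 in *WT*, 11.80, 11.99 and 11.95 in *E168d2neo/d2neo*, 11.86, 12.16 and 11.89 in *R90Wneo/Wneo*, and 11.87, 11.87 and 12.01 in *Crx-/-*. No mutant array reached the lowest *WT* array. It fell by 0.56 (SE 0.14) in both *E168d2neo/d2neo* and *Crx-/-* (adjusted p of 0.0394 and 0.0392 by limma), while the difference of -0.50 in *R90Wneo/Wneo* had an adjusted p of 0.146. Each of the calls was lost in 7 of the 12 fits that left out 1 array.

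*Ndufa2*, an accessory subunit with a thioredoxin-like fold, read 12.37, 12.51 and 12.37 in *WT* and 11.74, 11.90 and 12.06 in *E168d2neo/d2neo*. In *R90Wneo/Wneo* it read 12.21, 12.38 and 12.24, which overlaps *WT*, and in *Crx-/-* 12.14, 12.14 and 12.08, which does not. It fell by 0.51 (SE 0.14, adjusted p = 0.0491 by limma) in *E168d2neo/d2neo*, a call lost in 9 of the 12 fits with 1 array left out. By limma the differences of -0.14 and -0.30 in *R90Wneo/Wneo* and *Crx-/-* were not called (adjusted p of 0.778 and 0.239).

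Several other complex I genes had all 9 mutant arrays below *WT* without passing the test. The share of all genes with that pattern was not counted, here or for the other genes described so. *Ndufa10*, a subunit related to nucleoside kinases, read 12.72, 12.66 and 12.71 in *WT*, 12.31, 12.12 and 12.18 in *E168d2neo/d2neo*, 12.21, 12.54 and 12.38 in *R90Wneo/Wneo*, and 12.26, 12.38 and 12.26 in *Crx-/-*, with a difference of -0.50 in *E168d2neo/d2neo* (adjusted p = 0.0549 by limma). *Ndufa4*, named for complex I but now placed in complex IV, read 13.91, 14.01 and 14.09 in *WT*, 13.36, 13.61 and 13.51 in *E168d2neo/d2neo*, 13.63, 13.59 and 13.56 in *R90Wneo/Wneo*, and 13.43, 13.60 and 13.76 in *Crx-/-*, with differences of -0.51 (adjusted p = 0.057 by limma), -0.41 and -0.41. *Ndufs8*, a core subunit that carries iron-sulfur clusters, differed by -0.37, -0.18 and -0.36, and *Ndufa12* by -0.30, -0.22 and -0.13. Each of these shifts is under 1.5-fold. *Ndufv3*, a subunit of the arm that binds NADH, lay on the other side of *WT* by 0.21 in *R90Wneo/Wneo* and by 0.19 in *Crx-/-* (adjusted p of 0.587 and 0.425 by limma). *Ndufs5-ps* carries the symbol of a pseudogene, and its signal cannot be separated here from that of *Ndufs5*, its near-identical parent.

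**Figure D2:**
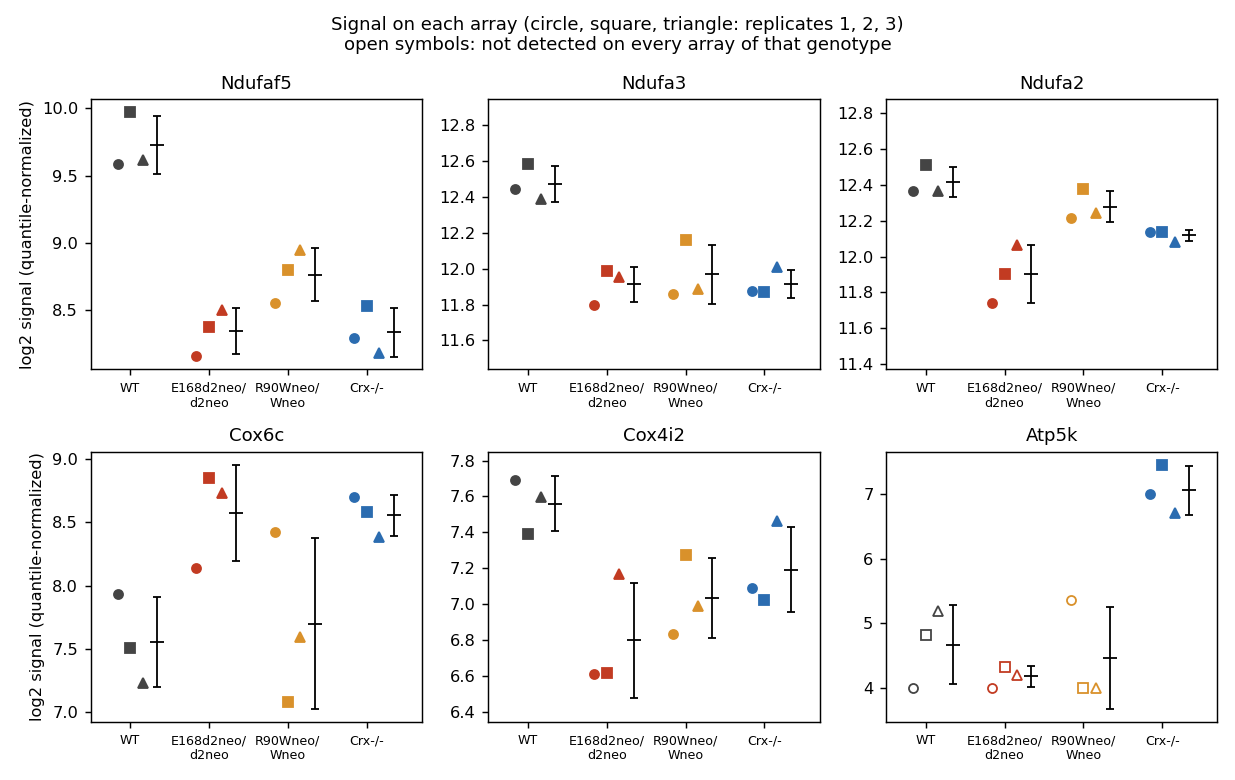
Log2 signal after quantile normalization (vertical axis) by genotype (horizontal axis) for 6 members, 1 panel per gene, with 1 symbol per array, bars for the mean ± SD of 3 arrays, and open symbols where some or all arrays of the genotype did not detect the probe. Ndufaf5 is below WT on all 9 mutant arrays, and Atp5k reads 6.71 to 7.46 in Crx-/- and at most 5.37 elsewhere.

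Complex II, succinate dehydrogenase, also belongs to the tricarboxylic acid cycle. None of its 3 subunit genes or 4 assembly factors was called in any comparison. The iron-sulfur subunit gene *Sdhb* read 8.13, 7.70 and 7.58 in *WT*, 7.80, 8.40 and 8.28 in *E168d2neo/d2neo*, 7.98, 7.62 and 7.77 in *R90Wneo/Wneo*, and 8.24, 8.25 and 8.29 in *Crx-/-*. The *Crx-/-* arrays lay above all *WT* arrays, by a mean of 0.46 (adjusted p = 0.209 by limma). *Sdhc*, a membrane anchor, differed by at most 0.10 from *WT* in any mutant. The flavoprotein gene *Sdha* was detected on 1 array only, so its probe does not report its level.

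Complex III passes electrons from ubiquinol to cytochrome c. Its 7 genes had medians of -0.22, -0.08 and -0.03 in *E168d2neo/d2neo*, *R90Wneo/Wneo* and *Crx-/-*, and 6 of 7 were below 0 in *E168d2neo/d2neo*. *Uqcr11*, a small accessory subunit, read 12.20, 12.51 and 12.34 in *WT*, 11.42, 12.26 and 12.24 in *E168d2neo/d2neo*, 12.08, 12.25 and 12.10 in *R90Wneo/Wneo*, and 11.86, 11.99 and 12.05 in *Crx-/-*. Only the *Crx-/-* arrays were all below *WT*, by a mean of 0.38 (adjusted p = 0.347 by limma), and the low mean in *E168d2neo/d2neo* came from its replicate 1. *Uqcrq*, the ubiquinone-binding subunit VII, read 9.27, 9.36 and 9.43 in *WT* and 9.14, 8.95 and 8.93 in *E168d2neo/d2neo*, a difference of -0.34 (adjusted p = 0.156 by limma). The core gene *Uqcrc2* stayed within 0.15 of *WT* in each mutant, while the Rieske protein gene *Uqcrfs1* was detected on 1 array only.

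Complex IV, cytochrome c oxidase, had the lowest share of genes within 0.5 of *WT* in each mutant, and its larger differences lay mostly in tissue-restricted isoforms and *Cox6c*. Its 13 genes had medians of -0.29, -0.09 and -0.12, and 8, 9 and 8 of them lay within 0.5 of *WT* in *E168d2neo/d2neo*, *R90Wneo/Wneo* and *Crx-/-*. *Cox6c* read 7.94, 7.50 and 7.23 in *WT*, 8.14, 8.85 and 8.74 in *E168d2neo/d2neo*, 8.42, 7.08 and 7.60 in *R90Wneo/Wneo*, and 8.70, 8.59 and 8.38 in *Crx-/-*. *E168d2neo/d2neo* and *Crx-/-* lay above *WT* on every array and *R90Wneo/Wneo* overlapped it. The differences of 1.02 (SE 0.32, adjusted p = 0.092 by limma) and 1.00 (adjusted p = 0.0925) missed the threshold.

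*Cox4i2*, the isoform of subunit IV known for its response to low oxygen in lung, read 7.69, 7.39 and 7.60 in *WT*, 6.61, 6.62 and 7.17 in *E168d2neo/d2neo*, 6.83, 7.27 and 6.99 in *R90Wneo/Wneo*, and 7.09, 7.03 and 7.46 in *Crx-/-*. Its *E168d2neo/d2neo* and *R90Wneo/Wneo* arrays were all below *WT*, by means of 0.76 (adjusted p = 0.05 by limma, just above the threshold before rounding, so not called) and 0.53 (adjusted p = 0.335). The summed endothelial marker level was 10.57 to 10.86 in *WT*, 9.88 to 10.14 in *E168d2neo/d2neo*, 10.18 to 10.69 in *R90Wneo/Wneo* and 9.95 to 10.3 in *Crx-/-*. The sum, like its brightest marker *Cldn5*, lay below *WT* in *E168d2neo/d2neo* and *Crx-/-* and overlapped it in *R90Wneo/Wneo*. *Pecam1* read 6.555 to 6.813 in *WT*, 5.606 to 6.042 in *E168d2neo/d2neo*, 6 to 6.504 in *R90Wneo/Wneo* and 6.327 to 6.621 in *Crx-/-*. Like *Cox4i2*, it lay below *WT* in both knock-in genotypes and overlapped it in *Crx-/-*. The remaining marker, *Kdr*, was detected on 7 arrays. The part of endothelial RNA in the *Cox4i2* difference was not tested. *Cox6b2*, the testis isoform of subunit VIb, read 7.25, 7.14 and 7.31 in *WT*, 6.97, 5.99 and 6.58 in *E168d2neo/d2neo*, 6.32, 6.84 and 6.58 in *R90Wneo/Wneo*, and 6.17, 6.65 and 6.62 in *Crx-/-*. All 9 mutant arrays were below *WT*, with differences of -0.72, -0.66 and -0.75 and adjusted p of 0.119, 0.322 and 0.0981 by limma.

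The isoforms known from heart and skeletal muscle were also measurable. *Cox7a1* read 7.54, 7.30 and 7.40 in *WT* and 6.76, 6.68 and 6.70 in *Crx-/-*, groups that do not overlap, with a difference of -0.70 (adjusted p = 0.0712 by limma). *Cox8b* read 7.44, 6.16 and 6.0 in *WT* and 5.34, 4.13 and 6.83 in *R90Wneo/Wneo*, which overlap, with a difference of -1.10 (SE 0.61, adjusted p = 0.56 by limma). *Cox6a2* read 5.57, 5.79 and 4.54 in *WT* and 6.28, 6.06 and 5.85 in *Crx-/-*, which lay above *WT* by 0.76 (adjusted p = 0.209 by limma). Of 5 skeletal muscle markers, *Ckm*, *Myh4* and *Tnnt3* were undetected on all arrays, *Acta1* was detected on 12 and *Myl1* on 7, and the summed level ran from 7.91 to 8.05 in *WT* and from 7.53 to 8.07 in the mutants. The part of muscle RNA in these isoforms was not tested.

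The ATP synthase held 15 members, of which 14 lay within 0.5 of *WT* in each mutant. Their medians were -0.14, -0.06 and 0.03 in *E168d2neo/d2neo*, *R90Wneo/Wneo* and *Crx-/-*, and without *E168d2neo/d2neo* replicate 1 the first became 0.04. The catalytic beta subunit gene *Atp5b* read 15.37, 15.42 and 15.31 in *WT*, 15.64, 15.56 and 15.56 in *E168d2neo/d2neo*, 15.49, 15.49 and 15.42 in *R90Wneo/Wneo*, and 15.31, 15.49 and 15.49 in *Crx-/-*, so that *E168d2neo/d2neo* lay above *WT* by 0.22 (adjusted p = 0.352 by limma). The central stalk gene *Atp5c1* also lay above *WT* in *E168d2neo/d2neo*, by 0.23 (adjusted p = 0.374 by limma), and in *Crx-/-*, by 0.22 (adjusted p = 0.402). *Atp5a1*, the alpha subunit gene, is uncertain, because its 2 probes differed from *WT* by 0.42 and -0.48 in *R90Wneo/Wneo* and neither was called.

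*Atp5k* encodes subunit e of the membrane sector of the ATP synthase, which is known for joining the enzyme into dimers. It read 4.0, 4.82 and 5.19 in *WT*, where 1 of 3 arrays detected it, 4.0, 4.33 and 4.20 in *E168d2neo/d2neo*, where none did, and 5.37, 4.0 and 4.0 in *R90Wneo/Wneo*, where 1 did. In *Crx-/-* it read 7.0, 7.46 and 6.71 and was detected on all 3 arrays. The *Crx-/-* arrays lay above the other 9, which overlapped each other. The signal of this probe rose by 2.39 (SE 0.39, adjusted p = 0.00434 by limma, n = 3 against 3) in *Crx-/-* against *WT*. The exact size is not known, because *WT* was near background and detected on 1 of 3 arrays. With each array left out in turn the difference ran from 2.05 to 2.65 and the call held, with an adjusted p of at most 0.026. A second *Atp5k* probe was undetected on all 12 arrays, and where either probe lies in the transcript was not established. Whether the signal reports the level of the *Atp5k* mRNA is therefore not known.

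The knock-in genotypes did not share the rise. The log2 difference of *Atp5k* from *Crx-/-* was -2.88 in *E168d2neo/d2neo* (adjusted p = 0.0083 by limma), or at least 4.96-fold lower, a bound set by the lowest signal detected on each array because *E168d2neo/d2neo* was undetected. In *R90Wneo/Wneo* it was -2.60 (adjusted p = 0.0197 by limma), with no exact fold because 1 of 3 arrays detected it. The differences from *WT* were -0.49 in *E168d2neo/d2neo* (adjusted p = 0.516 by limma) and -0.21 in *R90Wneo/Wneo* (adjusted p = 0.897), both among values near the floor. The *E168d2neo/d2neo* contrast lost its call without *E168d2neo/d2neo* replicate 3 (adjusted p = 0.0513) or *Crx-/-* replicate 2 (adjusted p = 0.0535), and the *R90Wneo/Wneo* contrast was lost in 5 of 12 such fits. *Atp5k* lies beside *Pde6b*, the rod phosphodiesterase beta gene, which read 14.2 to 14.5 in *WT*, 12.9 to 13.2 in *E168d2neo/d2neo*, 13.9 to 14.2 in *R90Wneo/Wneo* and 13.6 to 13.7 in *Crx-/-* and so did not follow its order.

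The probes whose values over the 12 arrays were most like those of *Atp5k* were 2 without a gene name (Pearson r = 0.941 and 0.937), *Socs4* (0.936), *Fam120b* (0.933) and *Zfp560* (0.928). None of the named genes is a respiratory chain gene. Their means in *Crx-/-* and *WT* were 7.22 and 6.22 for *Socs4*, 9.80 and 8.93 for *Fam120b*, and 9.02 and 8.33 for *Zfp560*. These r values describe likeness over arrays that share 4 genotypes and carry no test.

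Between the mutants, *Atp5k* was the only member called. *E168d2neo/d2neo* had 1 member lower than *Crx-/-* at 2-fold, where 0.312% of genes were lower, and 0 higher, where 0.218% were. *R90Wneo/Wneo* had 1 lower than *Crx-/-* (0.0936% of genes) and 0 higher (0.304%), and between *E168d2neo/d2neo* and *R90Wneo/Wneo* 0 were called (0.484% lower and 0.0858% higher). With no fold limit the member counts were the same, against 0.398% of genes lower and 0.296% higher for *E168d2neo/d2neo* and *Crx-/-*, 0.14% and 0.382% for *R90Wneo/Wneo* and *Crx-/-*, and 0.632% and 0.125% for *E168d2neo/d2neo* and *R90Wneo/Wneo*. At an unadjusted p under 0.05 by limma, 5, 8 and 5 of the 81 members passed in these comparisons (6.17, 9.88 and 6.17%), where 10.4, 10.7 and 9% of all genes did. *E168d2neo/d2neo* lay below *Crx-/-* on all arrays for 10 members and above for 2, where 7.34% and 7.57% of genes did so, and *R90Wneo/Wneo* for 8 and 7, where 10.8% and 12.2% did. *E168d2neo/d2neo* lay below *R90Wneo/Wneo* on all arrays for 13 members and above for 3, where 7.53% and 6.17% of genes did so.

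Part of the lean below *WT* followed single arrays. Taking each array's median over members relative to the *WT* mean, the *WT* arrays were at -0.018, 0.020 and 0.008, *E168d2neo/d2neo* at -0.270, -0.092 and -0.086, *R90Wneo/Wneo* at -0.052, -0.043 and -0.096, and *Crx-/-* at -0.135, -0.018 and -0.026. All 9 mutant arrays were below 0, though *Crx-/-* replicates 2 and 3 lay close to the lowest *WT* array. *E168d2neo/d2neo* replicate 1 was the lowest of its genotype for 62.9% of the 70 members detected throughout, against 36.5% of genes, and *Crx-/-* replicate 1 for 65.7% against 35.8%. Those are the 2 arrays with the highest *Cryba1*, and the part of lens RNA in the lean was not tested. Without *E168d2neo/d2neo* replicate 1 the member median was -0.09 with 52 of 81 below 0, and without *Crx-/-* replicate 1 it was -0.02 with 44 below 0.

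Leaving out *E168d2neo/d2neo* replicate 1 also raised the number of members called at any fold in *E168d2neo/d2neo* from 3 to 9, of which 8 were lower (9.88%) and 1 higher (1.23%). Over all genes the same fit raised the share lower from 4.19 to 7.6% and the share higher from 2.9 to 6.96%. The 9 were *Cox6a1*, *Cox6b2*, *Cox6c*, *Ndufa10*, *Ndufa2*, *Ndufa3*, *Ndufaf5*, *Ndufaf8* and *Uqcrq*, of which *Cox6c* and *Ndufaf5* passed 2-fold. On the remaining 2 arrays, where groups overlap less often because there are fewer arrays, 14 complex I genes lay below and 3 above all *WT* arrays (43.8% and 9.38%), where 23.3% and 23.6% of all genes did so.

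**Figure D3:**
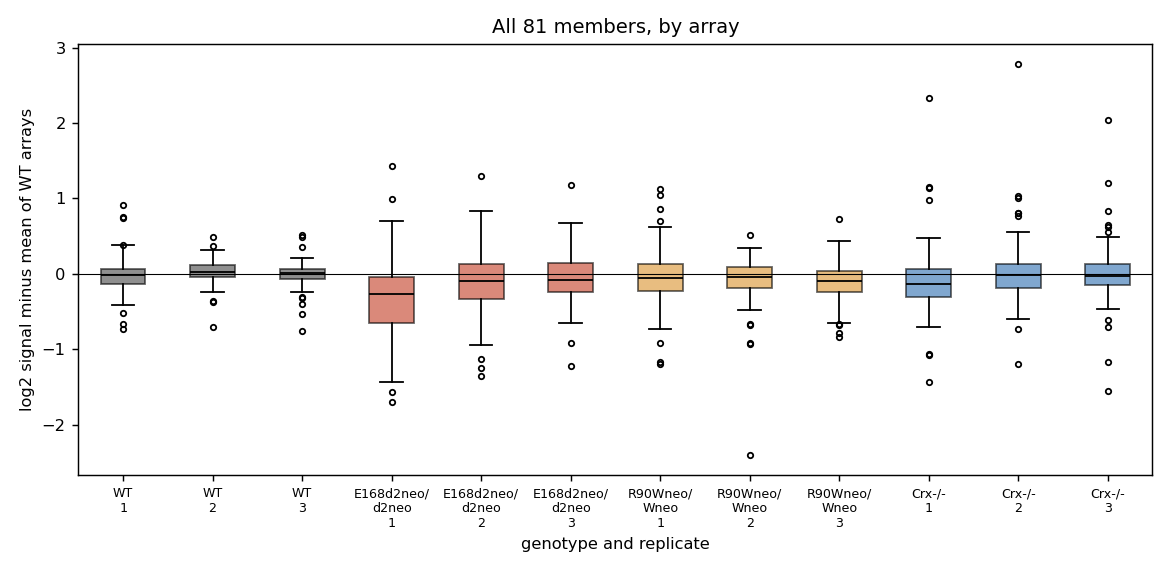
Log2 signal of the 81 members minus each member's WT mean (vertical axis) on the 12 arrays (horizontal axis, genotype and replicate), with boxes for the quartiles, a line for the median, whiskers to 1.5 box lengths and circles beyond. The medians of E168d2neo/d2neo replicate 1 (-0.270) and Crx-/- replicate 1 (-0.135) are the lowest.

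The wider mitochondrial programme was measured through 93 further genes. Their lists were assembly factors, mobile carriers with related genes outside the name prefixes, and genes of mitochondrial DNA. The others were the tricarboxylic acid cycle, nucleotide exchange, biogenesis regulators and inner membrane organisation. At any fold, 3 were lower and 5 higher in *E168d2neo/d2neo* (3.23% and 5.38%, against 4.19% and 2.9% of all genes). In *R90Wneo/Wneo* 1 was lower and 1 higher (1.08% each, against 1.02% and 0.476%), and in *Crx-/-* 5 were lower and 2 higher (5.38% and 2.15%, against 4.63% and 3.16%). None of the 15 genes of the tricarboxylic acid cycle or of the 8 mobile carriers and related genes was called in a comparison with *WT*.

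The steepest fall was in *Ckmt1*, the mitochondrial creatine kinase that hands phosphate from ATP to creatine. It read 13.41, 13.51 and 13.24 in *WT*, 10.95, 10.16 and 10.62 in *E168d2neo/d2neo*, 11.01, 11.76 and 11.61 in *R90Wneo/Wneo*, and 10.54, 10.57 and 10.75 in *Crx-/-*. No mutant array came within 1 log2 unit of *WT*. Its log2 differences were -2.81 (adjusted p = 4.76e-05 by limma), -1.92 (adjusted p = 0.00331) and -2.76 (adjusted p = 8.7e-05). Summed rod and cone marker levels were lower in the same arrays, and their part in this difference was not tested.

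*Ppargc1b*, a coactivator that drives mitochondrial biogenesis, differed by -1.26 in *E168d2neo/d2neo* and by -1.11 in *Crx-/-*, both called by limma with adjusted p of 0.00326 and 0.00751, and by -0.81 in *R90Wneo/Wneo*, which was not (adjusted p = 0.0868). It read 11.74, 11.85 and 11.66 in *WT* and 10.25 to 11.12 on the 9 mutant arrays. Its relative *Ppargc1a* fell by 0.73 in *Crx-/-* (adjusted p = 0.0333 by limma). *Pprc1*, of the same family, rose by 0.74 in *E168d2neo/d2neo* (adjusted p = 0.0247 by limma).

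*Coa4*, an assembly factor of complex IV, fell in *Crx-/-* alone among the comparisons with *WT*. It read 7.68, 8.19 and 8.10 in *WT*, 7.87, 7.99 and 7.67 in *E168d2neo/d2neo*, 8.07, 8.31 and 7.91 in *R90Wneo/Wneo*, and 6.75, 6.32 and 7.12 in *Crx-/-*. The *Crx-/-* arrays lay below all others, 1.26 below *WT* (adjusted p = 0.00664 by limma) and 1.37 below *R90Wneo/Wneo* (adjusted p = 0.0302). With 1 array left out, the call against *WT* held in all 12 fits and the call against *R90Wneo/Wneo* was lost in 9, with an adjusted p of up to 0.127 by limma. *Bcs1l*, which inserts the Rieske protein into complex III, fell by 0.61 in *Crx-/-* (adjusted p = 0.0311 by limma).

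*ND5*, a complex I subunit encoded in mitochondrial DNA, read 8.71, 8.06 and 8.23 in *WT*, 5.06, 6.72 and 6.66 in *E168d2neo/d2neo*, 6.71, 8.26 and 6.60 in *R90Wneo/Wneo*, and 6.81, 6.66 and 6.23 in *Crx-/-*. It fell by 2.19 in *E168d2neo/d2neo* (adjusted p = 0.0256 by limma), and the difference of -1.77 in *Crx-/-* (adjusted p = 0.0584) was not called. The *ND5* call was lost in 3 of 12 fits with 1 array left out. The other 7 detected genes of mitochondrial DNA were not called against *WT* in any mutant, and some lay on the other side of it. *COX2*, a core subunit of complex IV, read 7.03, 6.32 and 6.39 in *WT*, 7.24, 8.70 and 8.49 in *E168d2neo/d2neo*, 7.92, 6.21 and 7.07 in *R90Wneo/Wneo*, and 7.79, 8.29 and 8.03 in *Crx-/-*. Its *E168d2neo/d2neo* and *Crx-/-* arrays lay above all *WT* arrays, with differences of 1.56 and 1.46 (adjusted p of 0.0651 and 0.0795 by limma). *ND1*, of complex I, did so too, with differences of 1.36 and 1.40 (adjusted p of 0.101 and 0.087 by limma), and *ATP6*, of the ATP synthase, differed by 1.35 and 1.36 (adjusted p of 0.164 and 0.157 by limma) and was above *WT* on all arrays in *Crx-/-* only. *CYTB* and *ND4*, both detected on all 12 arrays, differed from *WT* in *E168d2neo/d2neo* by -0.07 and 0.03, and *ND4L* and *ND6* were detected on 1 array each.

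The genes that rose were dim in *WT*. *Yme1l1*, an inner membrane protease, rose by 1.55 and 1.41 in *E168d2neo/d2neo* and *Crx-/-* (adjusted p of 0.00735 and 0.0126 by limma). *Opa1*, which fuses inner membranes, rose by 1.23 in *E168d2neo/d2neo* (adjusted p = 0.0125 by limma) and 1.16 in *R90Wneo/Wneo* (adjusted p = 0.0482), and *Twnk*, the helicase of mitochondrial DNA, by 1.15 and 1.09 in *E168d2neo/d2neo* and *Crx-/-* (adjusted p of 0.0163 and 0.02). With 1 array left out, the *Opa1* call was lost in 10 of 12 fits in *R90Wneo/Wneo* (adjusted p of up to 0.175 by limma) and in 1 in *E168d2neo/d2neo*. The *Twnk* call was lost in 2 fits in *E168d2neo/d2neo* and 5 in *Crx-/-*, and that of *Yme1l1* in 0 and 3. Each of the 3 was detected on 1 of 3 *WT* arrays and on all 9 mutant arrays. *Tmem126b*, a complex I assembly factor, rose by 1.44 in *E168d2neo/d2neo* (adjusted p = 0.0498 by limma), where *WT* read 4.14, 6.03 and 5.73, a call lost in 10 of the 12 fits, with differences of 0.86 to 1.80. The *WT* arrays were among those with the lowest share of detected probes, 32.7 to 37.2%, and the part of array sensitivity in these rises was not tested.

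**Figure D4:**
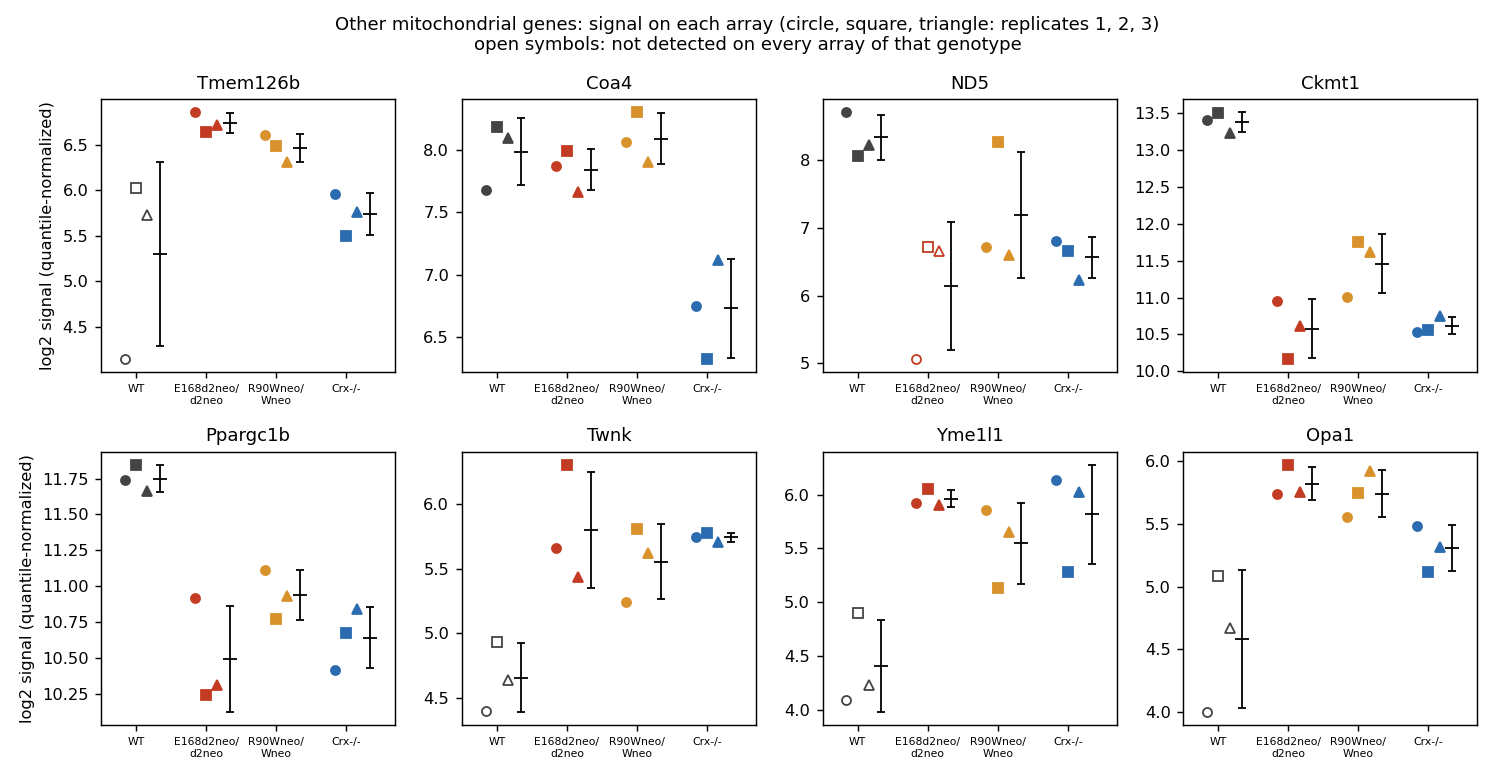
Log2 signal after quantile normalization (vertical axis) by genotype (horizontal axis) for 8 called genes of the other mitochondrial lists, with 1 symbol per array, bars for the mean ± SD of 3 arrays, and open symbols where some or all arrays of the genotype did not detect the probe. Ckmt1 lies at 13.24 to 13.51 in WT and at most 11.76 in the mutants, and Coa4 is low in Crx-/- only (6.32 to 7.12).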

How the data were processed

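Retinal RNA was hybridised to Illumina MouseWG-6 arrays. The deposited table holds background-subtracted signal intensity per probe, which the authors made in GenomeStudio with no normalization between arrays, and a deposited detection p-value per probe and array. A deposited table of intensity scaled to equal array means was used as an alternative, its rows matched by order because its row names and values are out of step. Signals were quantile normalized over 12 arrays, set to a floor of 16 and log2 transformed. Probes detected on at least 1 array (24311 of 45281) were fitted with limma 3.58.1 in R 4.3.3, with genotype as the only factor, 6 contrasts and Benjamini-Hochberg adjustment within each. With 3 arrays against 3, an exact permutation test of 1 gene cannot go below a two-sided p of 0.1, so the fit across all probes was used. The study's methods used SAM, which is an alternative here.

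Symbols came from the platform annotation, with 34885 probes having 1 symbol, 18 several and 10378 none, and promoters from RefSeq (GRCm38.p6). A promoter was searched on both strands, and matches of different motifs may overlap. Genes were named if called at 2-fold, if they had the largest difference of their complex in a mutant or the smallest adjusted p, and, for the other lists, if called. Other members were named after their values were seen. The members and lists were chosen with earlier results of these data known. Numbers of arrays limit the precision. The limma and SAM code was tested on simulated data.

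Alternatives were other normalizations, normexp background correction, other floors and filters, a fit on 6 arrays, SAM, the mean of a gene's probes, a replicate block, and leaving out each array. The labels do not say whether replicate numbers pair the arrays, so the replicate block was run only as an alternative. BeadChips are not given in the column names, so a chip block was not run.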

Additional observations from a re-analysis of the deposited data

Results flagged for a closer look

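The *Crx-/-* retina differed from both knock-in retinas in *Atp5k*, and the difference itself was tested. The log2 difference from *Crx-/-* was -2.88 in *E168d2neo/d2neo* (adjusted p = 0.0083 by limma) and -2.60 in *R90Wneo/Wneo* (adjusted p = 0.0197), and all 3 *Crx-/-* arrays lay above the other 9.

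In 2 genes a probe other than the one used for the member was called. The second *Ndufa3* probe read 12.19, 12.44 and 12.34 in *WT* and 11.25, 11.78 and 11.71 in *E168d2neo/d2neo*, a difference of -0.74 (adjusted p = 0.0312 by limma), the same direction as the brighter probe (-0.56). A dim *Ndufs4* probe read 7.20, 6.27 and 6.27 in *WT* and 7.81, 7.64 and 7.65 in *Crx-/-*, a difference of 1.12 (adjusted p = 0.0461 by limma), while the brighter *Ndufs4* probe differed by 0.03. *Ndufs4* encodes an accessory subunit of complex I. Its other detected probes differed by 0.42 and 0.37 in *Crx-/-* and were not called. The probes thus shared a direction there but give no single size. Groups of 3 arrays are too small for a check of single outlying arrays.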

How the results depend on the processing

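Of the tested differences of single genes under another setting, 847 kept their direction and side of the threshold, 161 lost a call, 4 gained one (*Cox6c*) and 13 reversed, and the causes were not tested. The medians of the members against *WT* reversed with no normalization, to 0.213, 0.315 and 0.385 in *E168d2neo/d2neo*, *R90Wneo/Wneo* and *Crx-/-*, where the median of all genes itself rose to 0.408, 0.405 and 0.434. The median in *R90Wneo/Wneo* was -0.041 with no filter on detection and -0.045 without the 4 arrays of highest lens crystallin, a setting chosen after seeing the data that leaves 1 *Crx-/-* array, assumed to vary like the others. With 1 array left out, the medians ran from -0.205 to -0.092, from -0.094 to -0.045 and from -0.106 to -0.02.

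Members called at any fold in *E168d2neo/d2neo* against *WT* (3) became 5 with equal array means, 0 with no normalization, 6 with normexp, 13 with a floor of 32, 6 with a stricter filter, 9 with none, 1 on 6 arrays, 1 by SAM, 1 with the replicate block and 6 with the mean of probes, and 1 to 9 with 1 array left out. Calls at 2-fold (1) became 0 with no normalization and 1 to 2 with 1 array left out. In *R90Wneo/Wneo* against *WT* (1 at any fold) they became 3 with a floor of 32 and 0 with equal means, no normalization, 6 arrays, SAM, the authors' scaled table or those 4 arrays left out, and 0 to 1 with 1 array left out, also at 2-fold. In *Crx-/-* against *WT* (3 at any fold, 2 at 2-fold) they became 1 and 1 with no normalization, and at any fold 6 with a floor of 32, 5 with no filter, 5 on 6 arrays and 2 to 5 with 1 array left out. At 2-fold they became 1 without those 4 arrays, where *Atp5k* differed by 2.79 (adjusted p = 0.106 by limma), and 2 to 3 with 1 array left out.

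In *E168d2neo/d2neo* against *Crx-/-* (1) the calls became 2 at any fold with a floor of 32, 0 with a floor of 8 or on 6 arrays, and 0 to 2 at any fold and 0 to 1 at 2-fold with 1 array left out. In *R90Wneo/Wneo* against *Crx-/-* (1) they became 0 with a floor of 8, no filter, 6 arrays, SAM, the replicate block or those 4 arrays left out, and 0 to 2 at any fold and 0 to 1 at 2-fold with 1 array left out.

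None of the single differences that reversed had been called. *Atp5k* in *R90Wneo/Wneo* against *WT* became 0.094 with no normalization, 0.019 with normexp, 0.06 with a floor of 32 and 0.015 without those 4 arrays. With 1 array left out it ran from -0.669 to 0.046, above 0 without *WT* replicate 3 and, at 0.015, without either of replicates 2 and 3 of *R90Wneo/Wneo*. In *E168d2neo/d2neo* against *R90Wneo/Wneo* it ran from -0.506 to 0.177, the last without replicate 1 of *R90Wneo/Wneo*. *Atp5a1* in *R90Wneo/Wneo* became -0.03 with the mean of probes. With no normalization *Atp5mpl* in *E168d2neo/d2neo* became 0.024, *Sdhaf2* in *R90Wneo/Wneo* 0.264, and *Uqcr11* 0.07 in *Crx-/-* and 0.179 in *R90Wneo/Wneo*.

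Same-numbered arrays correlated in their deviations at -0.052 to 0.313 over 18 pairs, with 6 over 0.1, and 9 of 12 arrays correlated best with their own number, a hint from the data and not the design. With the replicate block, *Ndufa2* had an adjusted p of 0.0661 and *Ndufa3* 0.0507 in *E168d2neo/d2neo* by limma, and *Atp5k* 0.0587 in *R90Wneo/Wneo* against *Crx-/-*. The lowest detected signal was 4.47 to 5.30 on the log2 scale, so differences among values near the floor carry no size.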
